A study of Mus musculus with 24 samples.

Results

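The genes described here are the mouse genes of the unfolded protein response and the integrated stress response, chosen by name: all probes whose annotated symbol is one of 36 listed genes. Of the 36, 35 had a probe on the array, with 67 probes in all, and 32 had a probe that passed the filter on dim signal, out of 10765 genes that passed and 19057 with a probe. By role, the 32 genes are 13 of 15 listed endoplasmic reticulum (ER) chaperones and folding factors, 6 of 8 genes of ER-associated degradation, 9 of 9 genes of the ATF4 arm, and 4 of 4 stress sensors and their transcription factors. Dnajb11 had no probe, Canx and Derl1 were detected on 0 arrays, and Derl3 was detected on 2 arrays, so these 4 genes have no tested value.

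Liver RNA came from male C57BL/6J mice aged 12 weeks, killed 6 h after surgery, and was hybridised to 24 Illumina BeadChip arrays in 6 groups of 4. The groups were diet-induced obese mice after sham surgery, 70% hepatectomy or 80% hepatectomy, and lean control mice after the same 3 operations; sham surgery was an incision and handling of the liver without resection. The obese and lean mice came from the same supplier and were kept on its diets, whose composition is not stated in the labels, and the labels name no transgene, drug or other agent in any group. The labels number the 4 mice of a group as replicates and do not say whether they were operated on together, so p-values measure the spread between these arrays.

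Proteins bound for secretion fold in the ER, and the liver, which makes most plasma proteins, depends on this step heavily. When unfolded protein builds up, the sensor IRE1 (gene Ern1) splices the mRNA of the transcription factor XBP1, and ATF6 is cut to release a factor of its own; both raise chaperones and the machinery of ER-associated degradation. The sensor PERK (Eif2ak3) phosphorylates eIF2α, as do kinases that sense amino acid shortage, viral RNA or haem, and this favours translation of ATF4, which raises genes of amino acid supply, redox balance and cell death.

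Values below are log2 normalized probe intensities, and a difference is a log2 difference with its standard error (SE) from 1 limma model over all 24 arrays. A gene is said to have risen or fallen where the Benjamini-Hochberg adjusted p over all 10765 genes of that comparison was under 0.05. An offset of 16 added to all intensities shrinks the folds of dim genes. Arrays detected between 15316 and 17463 probes, and arrays of a group correlated at 0.977 to 0.996. The arrays lay on 4 slides: slide 1 held the lean sham arrays and obese sham arrays 1 and 2, slide 2 obese sham arrays 3 and 4 and the lean 70% arrays, slide 3 the obese 70% arrays and lean 80% arrays 1 and 2, and slide 4 lean 80% arrays 3 and 4 and the obese 80% arrays. Slide and surgery cannot be told apart in obese 70% against obese sham, obese 80% against obese sham or lean 80% against lean sham, and slide and diet cannot be told apart after 70% hepatectomy. The same holds for lean 80% against lean 70% and for the interactions of diet with 70% hepatectomy and with resection size. All 8 hepatocyte markers were detected in every group. The summed linear level of the 4 detectable neutrophil markers was 97.4 to 118 in obese sham, 1030 to 1920 in obese 70%, 3385 to 5362 in obese 80%, 106 to 191 in lean sham, 1100 to 3602 in lean 70% and 991 to 2776 in lean 80% livers. For the B and plasma cell list, 2 of 8 markers passed the filter, Jchain and Pou2af1 were detected on 0 arrays, and the summed level was 41.5 to 68.5 over the groups. The 2 detectable cholangiocyte markers summed to 306 to 462 in obese sham, 881 to 2886 in obese 70% and 1891 to 3489 in obese 80% livers. In lean livers they summed to 303 to 457 after sham surgery, 485 to 1485 after 70% and 644 to 3036 after 80% hepatectomy, with Krt19 and Epcam detected on 0 arrays. Of 10 pancreatic acinar markers, Cpa1, Cel and Try4 were detected on 0 arrays, while Amy2a5 and Cela1 were detected on 24 and Cela2a on 6. These 3 detectable ones summed to 12170 to 13970 in obese sham, 10120 to 11710 in obese 70% and 8759 to 10440 in obese 80% livers. In lean livers they summed to 9539 to 10140 after sham surgery, 6045 to 8427 after 70% and 7447 to 9595 after 80% hepatectomy. In bulk liver, fewer cells of a type and less RNA per cell cannot be told apart. Kupffer cell and macrophage markers summed to 2065 to 5930 in lean 70% and 2118 to 2783 in obese 70% livers. Stellate cell markers summed to 3678 to 4099 in lean sham and 5100 to 5510 in obese sham livers. After 70% hepatectomy the stellate sums overlapped (4746 to 6560 in lean and 5185 to 5752 in obese livers). The part of neutrophils, cholangiocytes, acinar cells, macrophages and stellate cells in the member values was not tested.

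After 70% hepatectomy in obese mice all 13 chaperone and folding genes rose, while after the same operation in lean mice 2 rose and 1 fell. In the ATF4 arm 6 of 9 genes rose and 1 fell after 70% hepatectomy in obese mice, and 5 of 9 rose and 1 fell in lean mice. Of the 13 chaperone calls, those of P4hb, Pdia4 and Pdia6 were lost without single arrays. Slide and surgery cannot be told apart for any of the 13. Over all genes, 46.8% were called in obese 70% against obese sham livers (22.2% higher and 24.6% lower), and 22 members rose and 4 fell out of 32, so that upward calls prevailed. Groups did not overlap in 27 members, against 46.1% of all genes. In obese 80% against obese sham livers 52.8% of genes were called (24.1% higher, 28.7% lower), and 13 members rose and 5 fell, again mostly upward. In 20 members the groups did not overlap, against 51.4% of all genes. In lean 70% against lean sham livers 47.6% were called (21.4% higher, 26.2% lower), and 8 members rose and 6 fell. Groups did not overlap in 13 members, against 40.7% of all genes. In lean 80% against lean sham livers 55% were called (23.9% higher, 31% lower), and 8 members rose and 10 fell. In 12 members the groups did not overlap, against 44.7% of all genes, so the lean counts of members lay near the share over all genes.

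The median log2 difference of the chaperone and folding genes was 0.87 in obese 70% against obese sham livers and 0.32 in obese 80% against obese sham livers, and 0.15 and -0.04 for the matching comparisons in lean mice. For the ATF4 arm the same 4 medians were 1.13, 0.98, 0.91 and 0.89, and over all genes tested they were -0.02, -0.04, -0.03 and -0.06. The ATF4 medians depended on the processing. In lean 70% livers the ATF4 median was 0.50 without background correction, 0.57 with an offset of 50 and 0.49 on the authors' series matrix values. In lean 80% livers it was 0.60 without background correction, 0.59 on the series matrix and 0.42 with the mean of a gene's probes or with every probe on its own. The genes of ER-associated degradation had medians of 0.29, -0.40, -0.27 and -0.42, with 2 risen and 1 fallen, 1 and 3, 0 and 2, and 0 and 4. Manf was not detected on any obese sham array, and the chaperone medians were the same with Manf at its lower bound. The ATF4 median in lean 80% livers depended on single arrays: it was 1.16 without lean 80% array 2 and 0.53 without array 4. By gene, 6 members rose in all 4 resection groups (Hspa5, Chac1, Asns, Ppp1r15a, Nupr1 and Xbp1) and 2 fell in all 4 (Derl2 and Ern1). Of the others, 3 were called in none (Edem1, Vldlr and Eif2ak3), and 7 were called in both directions. The share of all genes with each of these patterns was not counted, and both comparisons of a diet share their sham arrays.

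**Figure D1:**
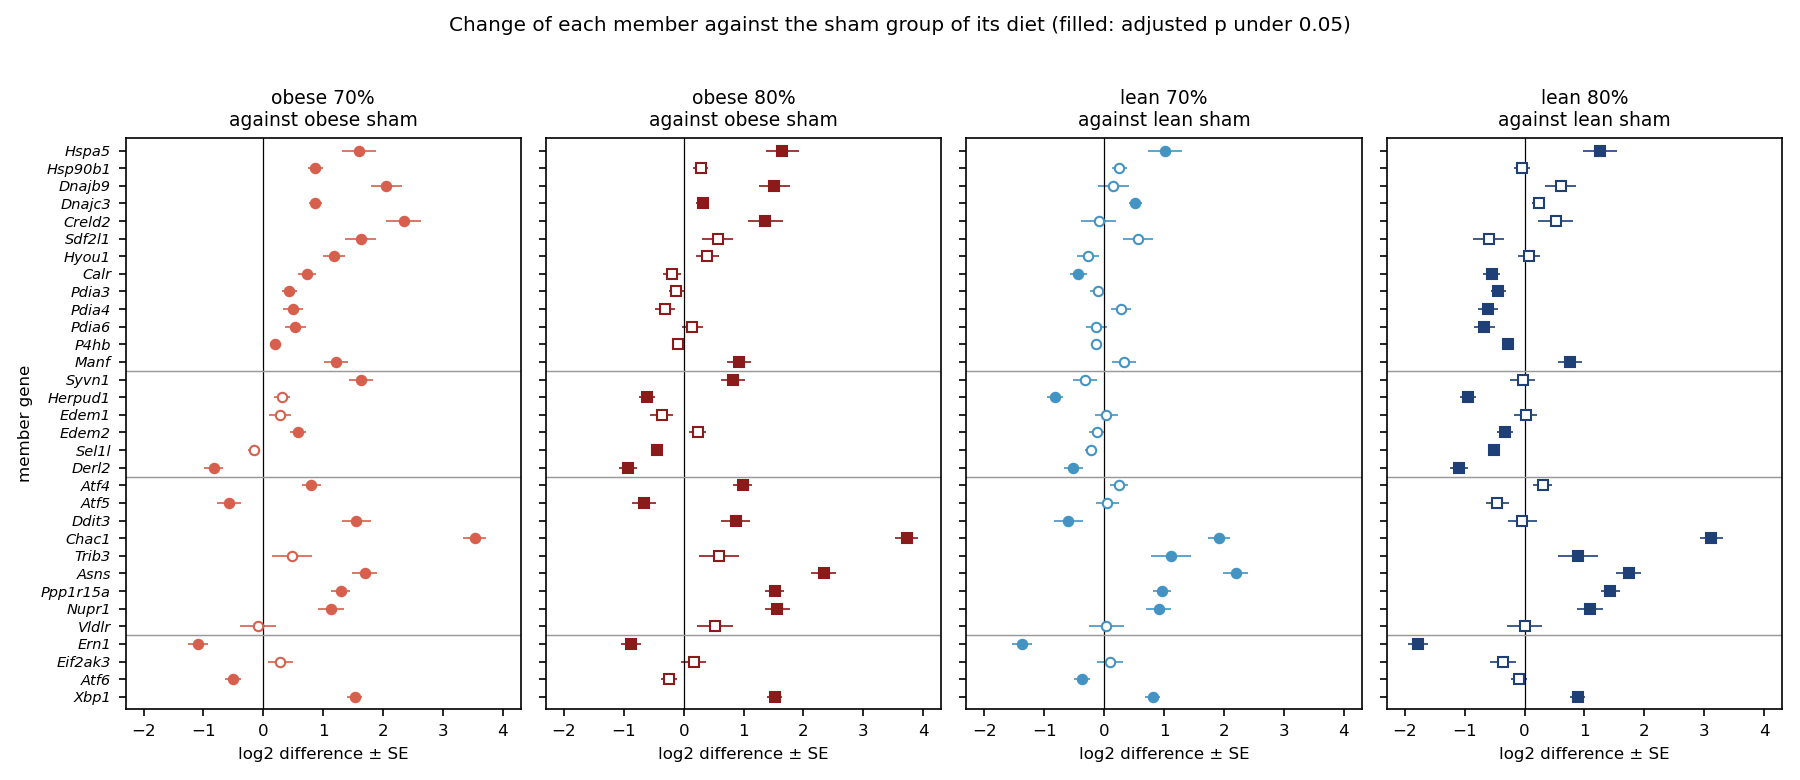
Log2 difference of each of the 32 tested members from the sham group of its diet (x axis, ± SE), by role from top to bottom: chaperones and folding, ER-associated degradation, ATF4 arm, sensors and factors. All 13 chaperone points are filled (adjusted p under 0.05) and right of 0 in obese 70% livers, against 2 in lean 70% livers, while Chac1, Asns, Ppp1r15a and Nupr1 lie right of 0 in all 4 panels; the points of Manf in obese mice and of Atf6 after 70% hepatectomy are measured differences from or to probes not above background.

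Array by array, the median of the 13 chaperone genes, each centred on its mean over the 24 arrays, was -0.59 to -0.28 on the obese sham arrays, 0.45 to 0.78 on the obese 70% arrays and -0.32 to 0.08 on the obese 80% arrays. It was -0.15 to 0.21 on the lean sham arrays, -0.06 to 0.22 on the lean 70% arrays and -0.47 to 0.20 on the lean 80% arrays. The obese 70% arrays thus stood above every other array, and the obese sham arrays overlapped only the obese 80% and lean 80% arrays. For the 9 ATF4 arm genes the median was -0.71 to -0.44 on obese sham, 0.19 to 0.49 on obese 70% and 0.38 to 0.58 on obese 80% arrays. In lean mice it was -0.75 to -0.30 on sham, -0.36 to 0.17 on 70% and -0.33 to 0.70 on 80% arrays, where the 3 ranges overlapped.

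**Figure D2:**
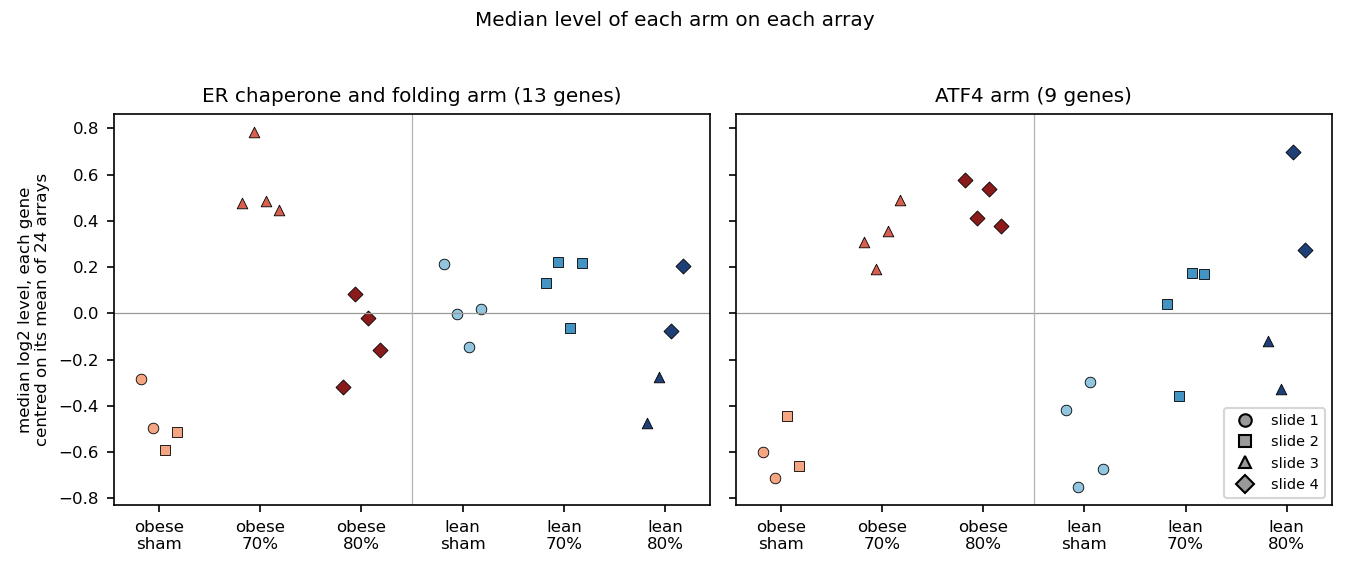
Median centred log2 level (y axis) of the 13 chaperone and folding genes and of the 9 ATF4 arm genes on each array, with the slide as marker shape. The obese 70% arrays (slide 3) have the 4 highest chaperone medians, 0.45 to 0.78. The lean 80% arrays of the same slide, which differ in diet and resection size, have -0.47 and -0.27. The ATF4 medians of both obese resection groups, 0.19 to 0.58, lie above all obese sham arrays.

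Slide 3 held the obese 70% arrays together with lean 80% arrays 1 and 2, which allows a comparison on 1 slide, though of another diet and resection size, chosen after seeing the data. There, every obese 70% array read above both lean 80% arrays for 13 of 13 chaperone genes, by a median log2 difference of 0.81, and for 3 of 6 degradation genes. For the ATF4 arm this held for 5 of 9 genes, while Chac1 and Asns were lower on every obese 70% array. The share of all genes with such a separation on slide 3 was not counted. The parts of slide, diet and resection size in these differences were not tested. The mean of lean 80% arrays 1 and 2 (slide 3) was below the mean of lean 80% arrays 3 and 4 (slide 4) for all 13 chaperone genes, by -0.008 (Pdia3) to -1.15 (Hspa5), with a median difference of -0.38. Single arrays of the 2 slides overlapped for Pdia3, Pdia4 and Dnajc3.

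Promoters of these genes are known for short elements that the stress factors bind. The stretches shown here are from chaperone genes (Hspa5, Creld2 and Pdia6) and degradation genes (Syvn1 and Herpud1) whose windows hold such an element. The ER stress element, bound by ATF6 with NF-Y, was searched as CCAAT and CCACG separated by any 9 bases, on both strands, in RefSeq promoter windows of GRCm38.p6 from 250 bases before to 50 bases after each gene's start; 32 of the 36 members have a window (Hyou1, Manf, Derl1 and Atf6 are not in the table). In the next lines capitals mark the element, which reads CGTGG and ATTGG where it lies on the other strand (Creld2), and for Herpud1 they mark a second form, ATTGG and CCACG separated by 1 base.
Hspa5: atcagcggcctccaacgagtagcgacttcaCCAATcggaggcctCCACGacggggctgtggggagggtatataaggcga
Creld2: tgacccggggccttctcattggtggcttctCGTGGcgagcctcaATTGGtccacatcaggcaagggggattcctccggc
Pdia6: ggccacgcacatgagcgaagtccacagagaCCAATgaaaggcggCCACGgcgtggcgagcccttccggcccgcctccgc
Syvn1: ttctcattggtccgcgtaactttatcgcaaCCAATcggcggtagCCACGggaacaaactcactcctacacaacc
Herpud1: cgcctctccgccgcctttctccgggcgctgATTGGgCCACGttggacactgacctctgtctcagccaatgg
The stretches are chr2:34771995-34772073 (plus strand) for Hspa5, chr15:88819490-88819568 (plus strand) for Creld2, chr12:17266461-17266539 (plus strand) for Pdia6, chr19:6046502-6046575 (plus strand) for Syvn1 and chr8:94386347-94386417 (plus strand) for Herpud1, all before the transcript start. The exact ER stress element was found in 9 of 32 members, namely 7 of 13 chaperone genes (Hspa5, Hsp90b1, Dnajc3, Creld2, Calr, Canx and Pdia6), 2 of 7 degradation genes (Syvn1 and Derl3) and 0 of 9 ATF4 arm genes, against 0.119% of 32851 promoters in the table. With up to 1 mismatch in the fixed letters it was found in 15 of 32 members, against 1.5% of all promoters. The second form was found exactly in 2 members (Herpud1 and Dnajb11), against 0.0365% of all promoters, and may overlap the first where mismatches are allowed. The chaperone genes Dnajb9, Sdf2l1, Pdia3, Pdia4 and P4hb, which also rose in obese 70% livers, hold neither form exactly. TGACGTGG, the unfolded protein response element, was found in 0 members, against 0.676% of all promoters. Members are counted by gene, with 35 windows for the 32 genes, and the table by promoter. Because promoters of these genes are already known for such elements, the shares describe the members and test nothing.

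Among the 8 tested members with an exact element of either form, 7 rose and 0 fell in obese 70% against obese sham livers (median log2 difference 0.87, range 0.31 to 2.35). In obese 80% against obese sham livers 4 rose and 1 fell (median 0.30), in lean 70% against lean sham livers 2 rose and 2 fell (median -0.11), and in lean 80% against lean sham livers 1 rose and 3 fell (median -0.04). Herpud1 did not pass in obese 70% livers on its brightest probe. The 16 tested members whose window held neither this element nor the ATF4 element described further on had 10 risen and 3 fallen in obese 70% livers (median 0.46), 5 and 4 in obese 80% livers (median 0.03), 2 and 3 in lean 70% livers (median 0.05) and 2 and 7 in lean 80% livers (median -0.34). Herpud1 holds both elements. Over all genes 46.8% were called in obese 70%, 52.8% in obese 80%, 47.6% in lean 70% and 55% in lean 80% livers against sham. Changes of all genes that hold the element were not counted, and a link between element and change was not tested. A match describes the letters in the window and not binding in these livers.

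Hspa5 encodes BiP, the ER Hsp70 chaperone that also holds the stress sensors inactive. Obese arrays of Hspa5 read 7.86, 7.68, 7.76 and 7.83 in obese sham, 9.49, 9.58, 9.21 and 9.24 in obese 70% and 8.82, 9.67, 9.69 and 9.56 in obese 80% livers. Lean arrays of Hspa5 read 7.99, 7.72, 7.13 and 7.69 after sham surgery, 8.66, 8.24, 8.37 and 9.34 after 70% and 7.88, 8.76, 9.68 and 9.26 after 80% hepatectomy. In obese mice both resection groups lay above all sham arrays; in lean mice the 70% arrays did, and lean 80% array 1, at 7.88, lay inside the sham range. The log2 difference was 1.60 ± 0.28, adjusted p = 5.65e-05 for obese 70% and 1.65 ± 0.28, adjusted p = 2.86e-05 for obese 80%, each against obese sham. In lean mice it was 1.02 ± 0.28, adjusted p = 0.00423 for 70% and 1.26 ± 0.28, adjusted p = 0.000537 for 80%, and the change did not pass a test of a difference between diets (70% interaction 0.58 ± 0.40, adjusted p = 0.328). With slide as a fixed term the lean 70% call was lost (adjusted p = 0.0862).

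Dnajb9 encodes ERdj4, a J-domain partner of BiP and a well-known XBP1 target. The Dnajb9 level was 10.64, 10.39, 10.11 and 9.99 in obese sham, 12.29, 12.45, 12.37 and 12.22 in obese 70% and 11.61, 12.04, 11.74 and 11.77 in obese 80% livers. For Dnajb9 in lean livers the values were 10.41, 10.54, 9.94 and 10.80 after sham surgery, 10.32, 10.12, 10.46 and 11.40 after 70% and 10.12, 10.98, 11.43 and 11.56 after 80% hepatectomy. All obese resection arrays lay above every obese sham array and every lean array, while the lean resection groups overlapped the lean sham arrays. Dnajb9 rose by 2.05 ± 0.26 in obese 70% livers (4.14-fold, adjusted p = 7.53e-07) and by 1.51 ± 0.26 in obese 80% livers (adjusted p = 3.24e-05), against obese sham. In lean mice the differences were 0.15 ± 0.26, adjusted p = 0.659 for 70% and 0.60 ± 0.26, adjusted p = 0.054 for 80%. The change after 70% hepatectomy was larger in obese than in lean mice by 1.90 ± 0.37, adjusted p = 0.00113. A second, dimmer Dnajb9 probe did not pass that test (1.04, adjusted p = 0.0811). On it the differences from sham were 1.68 in obese 70% (adjusted p = 4.75e-05), 1.43 in obese 80% (adjusted p = 0.000228), 0.64 in lean 70% (adjusted p = 0.0765) and 0.80 in lean 80% livers (adjusted p = 0.0237), so that the interaction call was lost and the lean 80% call gained.

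Creld2, whose product has disulfide isomerase activity and is induced by ER stress, gave the largest fold of the chaperone arm in obese 70% livers. Creld2 read 9.50, 9.03, 8.46 and 8.40 in obese sham, 11.21, 11.60, 11.08 and 10.89 in obese 70% and 9.65, 10.43, 10.67 and 10.08 in obese 80% livers. In lean mice Creld2 was at 9.18, 9.24, 8.94 and 9.28 after sham surgery, 9.07, 8.59, 8.64 and 9.98 after 70% and 9.22, 9.27, 10.35 and 9.90 after 80% hepatectomy. The obese 70% arrays exceeded all 20 others, the obese 80% arrays exceeded all obese sham arrays, and in lean mice both resection groups overlapped sham. The log2 difference was 2.35 ± 0.29, adjusted p = 6.10e-07 for obese 70% against obese sham, a 5.08-fold change, and 1.36 ± 0.29, adjusted p = 0.000401 for obese 80% against obese sham. For lean 70% against lean sham it was -0.09 ± 0.29, adjusted p = 0.819, and the 70% interaction with diet was 2.44 ± 0.41, adjusted p = 0.000353. Lean 70% array 4 stood above the other lean 70% arrays for Creld2, Dnajb9 and Hspa5.

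Sdf2l1, an ER protein that works with BiP and J-domain partners, was lower in obese sham than in lean sham livers. Obese arrays of Sdf2l1 read 6.79, 6.05, 5.93 and 6.19 in obese sham, 7.74, 8.19, 7.76 and 7.76 in obese 70% and 6.17, 7.45, 7.23 and 6.35 in obese 80% livers. Lean livers gave 7.66, 7.22, 6.92 and 6.93 after sham surgery, 7.85, 8.08, 7.73 and 7.34 after 70% and 6.38, 6.25, 6.56 and 7.14 after 80% hepatectomy. Obese 70% arrays lay above all obese sham arrays and overlapped the lean 70% arrays, whereas obese 80% and sham arrays overlapped. Against obese sham the log2 difference was 1.63 ± 0.26, adjusted p = 1.43e-05 for obese 70% and 0.56 ± 0.26, adjusted p = 0.0672 for obese 80%. The obese sham minus lean sham difference was -0.95 ± 0.26, adjusted p = 0.0159, a call lost without lean sham array 1 (-0.79, adjusted p = 0.066) or obese sham array 3 (-0.84, adjusted p = 0.0658). The 70% interaction was 1.06 ± 0.36, adjusted p = 0.0438, lost when any of 12 single arrays was left out (highest adjusted p 0.0957).

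Hyou1 encodes a large ER chaperone that exchanges nucleotide on BiP. The Hyou1 level was 5.51, 5.52, 5.44 and 5.52 in obese sham, 6.65, 6.83, 6.65 and 6.58 in obese 70% and 5.54, 6.22, 6.01 and 5.80 in obese 80% livers. Lean arrays of Hyou1 read 6.16, 6.05, 5.93 and 6.27 after sham surgery, 5.44, 6.25, 5.26 and 6.40 after 70% and 5.97, 6.08, 6.34 and 6.32 after 80% hepatectomy. Obese 70% arrays lay above all obese and lean sham arrays, and lean 70% arrays fell into 2 pairs, arrays 2 and 4 above arrays 1 and 3. Hyou1 rose by 1.18 ± 0.19 in obese 70% against obese sham livers (adjusted p = 1.53e-05), with 0.39 ± 0.19, adjusted p = 0.0779 for obese 80% and -0.26 ± 0.19, adjusted p = 0.257 for lean 70%, each against its sham group. The 70% interaction was 1.44 ± 0.26, adjusted p = 0.000644.

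The lectin chaperone Calr, the Hsp90 of the ER Hsp90b1, and the PERK inhibitor Dnajc3 followed with smaller differences. Calr was between 8.47 and 8.58 in obese 70% livers and between 7.50 and 8.19 in obese sham livers. In lean 70% livers Calr was between 7.80 and 8.34, and in lean sham livers between 8.39 and 8.61. Neither pair of groups overlapped. Calr moved in opposite directions by diet: it rose by 0.73 ± 0.15 in obese 70% against obese sham livers (adjusted p = 0.000279) and fell by 0.43 ± 0.15 in lean 70% against lean sham livers (adjusted p = 0.0197), with an interaction of 1.16 ± 0.21, adjusted p = 0.000602. The lean 70% call was lost without lean sham array 1 or 4 or lean 70% array 3 or 4 (highest adjusted p 0.0804), and with slide as a fixed term the difference was 0.02 (adjusted p = 0.963). Hsp90b1 averaged 12.85 ± 0.18 in obese 70% and 11.99 ± 0.10 in obese sham livers (SD, n = 4 each), a difference of 0.87 ± 0.13, adjusted p = 8.65e-06; in obese 80% livers it was 0.28 ± 0.13, adjusted p = 0.0751. Dnajc3 rose in obese 70% (0.87 ± 0.11, adjusted p = 8.62e-07), obese 80% (0.32 ± 0.11, adjusted p = 0.0192) and lean 70% livers (0.52 ± 0.11, adjusted p = 0.00045), each against its sham group. The obese 80% call of Dnajc3 was lost without obese 80% array 2 (0.23, adjusted p = 0.0929), obese sham array 3 (0.28, adjusted p = 0.0568) or obese sham array 4 (0.29, adjusted p = 0.0543).

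The protein disulfide isomerases Pdia3, Pdia4, Pdia6 and P4hb form and rearrange disulfide bonds in the ER, and they rose in obese 70% livers and fell in lean 80% livers. In obese 70% against obese sham livers the differences were 0.43 ± 0.13, adjusted p = 0.00685 for Pdia3 and 0.49 ± 0.17, adjusted p = 0.0189 for Pdia4. Pdia6 differed by 0.53 ± 0.17, adjusted p = 0.0148 and P4hb by 0.20 ± 0.08, adjusted p = 0.0463. These were the smallest changes of the arm: P4hb lost its call when any of 15 single arrays was left out (highest adjusted p 0.112), Pdia4 without obese 70% array 2 (0.42, adjusted p = 0.0637) or obese sham array 3 (0.45, adjusted p = 0.0526), and Pdia6 without obese sham array 3 (0.43, adjusted p = 0.0624). In lean 80% against lean sham livers Pdia3 fell by 0.44 ± 0.13 (adjusted p = 0.00477), Pdia4 by 0.61 ± 0.17 (adjusted p = 0.00344) and Pdia6 by 0.67 ± 0.17 (adjusted p = 0.00229). P4hb fell there by 0.27 ± 0.08 (adjusted p = 0.00671), but with upper-quartile scaling its difference was 0.03 (adjusted p = 0.813). A second, dimmer Pdia6 probe gave 0.79 in obese 70% (adjusted p = 0.000509) and 0.43 in obese 80% livers (adjusted p = 0.0357), and 0.09 in lean 80% livers (adjusted p = 0.678), where it did not show the fall.

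Manf, a secreted ER stress protein, was not well above background on any obese sham array and was detected on all 8 arrays of the resected obese groups. It was at least 2.09-fold higher in obese 70% livers and at least 1.70-fold higher in obese 80% livers than in obese sham livers (adjusted p = 2.61e-05 and 0.000444), where each bound sets the mean of the bright group against the lowest signal well above background. In lean livers it was detected on 1 sham, 2 of the 70% and 3 of the 80% arrays.

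**Figure D3:**
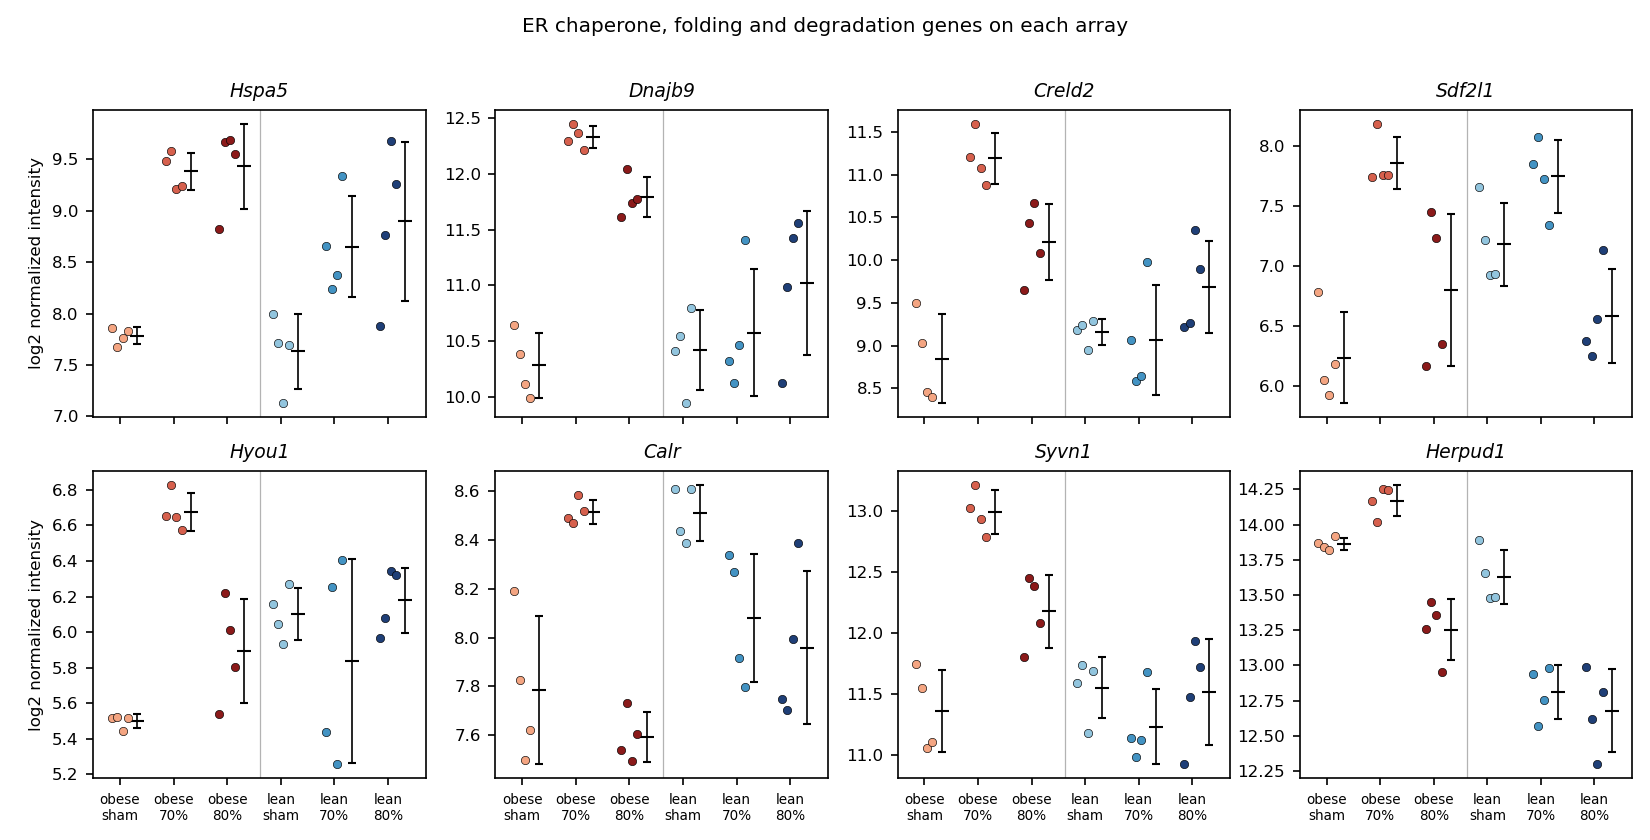
Log2 normalized intensity (y axes, not starting at 0) on each array (points, 4 a group) with the mean ± SD (n = 4), for 6 chaperone genes and the degradation genes Syvn1 and Herpud1. The obese 70% arrays of Creld2 (10.89 to 11.60) and Syvn1 (12.79 to 13.22) lie above all other arrays, while lean resection arrays of Herpud1 (12.30 to 12.99) lie below all sham arrays.

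Genes of ER-associated degradation, which returns misfolded proteins to the cytosol for destruction, split by gene. Syvn1 encodes HRD1, the ubiquitin ligase of this pathway. Syvn1 read 11.75, 11.55, 11.06 and 11.11 in obese sham, 13.03, 13.22, 12.94 and 12.79 in obese 70% and 11.80, 12.45, 12.39 and 12.08 in obese 80% livers. For Syvn1 in lean livers the values were 11.60, 11.74, 11.19 and 11.69 after sham surgery, 11.14, 10.98, 11.13 and 11.69 after 70% and 10.93, 11.48, 11.94 and 11.73 after 80% hepatectomy. The obese 70% arrays stood above all others and the obese 80% arrays above all obese sham arrays, while the lean groups overlapped. Syvn1 rose by 1.63 ± 0.20 in obese 70% (3.09-fold, adjusted p = 5.58e-07) and by 0.82 ± 0.20 in obese 80% livers (adjusted p = 0.00153) against obese sham. In lean 70% against lean sham livers the difference was -0.32 ± 0.20, adjusted p = 0.207, and the 70% interaction was 1.95 ± 0.29, adjusted p = 8.87e-05.

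Herpud1, which scaffolds the HRD1 complex, fell after both resections in lean mice and after 80% hepatectomy in obese mice. Obese arrays of Herpud1 read 13.87, 13.84, 13.82 and 13.92 in obese sham, 14.17, 14.02, 14.26 and 14.25 in obese 70% and 13.26, 13.45, 13.36 and 12.96 in obese 80% livers. In lean mice Herpud1 was at 13.89, 13.66, 13.48 and 13.49 after sham surgery, 12.94, 12.57, 12.75 and 12.98 after 70% and 12.99, 12.62, 12.30 and 12.81 after 80% hepatectomy. All 8 lean resection arrays lay below all lean sham arrays and below the 12 obese arrays except obese 80% array 4. Herpud1 fell by 0.82 ± 0.13 in lean 70% (adjusted p = 1.99e-05) and by 0.95 ± 0.13 in lean 80% livers (adjusted p = 2.13e-06) against lean sham. In obese livers it fell by 0.61 ± 0.13 after 80% hepatectomy (adjusted p = 0.000527), and after 70% hepatectomy the difference was 0.31 ± 0.13, adjusted p = 0.0607, although the obese 70% and obese sham arrays did not overlap. A second Herpud1 probe of nearly the same brightness passed there, at 0.48 (adjusted p = 0.0145). The 70% interaction was 1.13 ± 0.19, adjusted p = 0.000318, and the 80% interaction, 0.34 (adjusted p = 0.262), did not pass.

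Derl2, a membrane protein of the retrotranslocation channel, fell in all 4 resection groups. The Derl2 level was 8.88, 8.99, 9.61 and 9.36 in obese sham, 8.43, 8.28, 8.59 and 8.22 in obese 70% and 8.48, 8.60, 7.90 and 8.15 in obese 80% livers. Lean livers gave 9.32, 9.28, 9.29 and 9.41 after sham surgery, 8.89, 8.79, 8.72 and 8.83 after 70% and 8.04, 8.03, 8.21 and 8.62 after 80% hepatectomy. Its resection arrays lay below all sham arrays in each diet. The log2 differences were -0.83 ± 0.16 in obese 70% and -0.93 ± 0.16 in obese 80% livers (adjusted p = 0.000119 and 2.40e-05). In lean livers they were -0.51 ± 0.16 for 70% and -1.10 ± 0.16 for 80% (adjusted p = 0.00869 and 2.48e-06). Edem2, a mannosidase-like protein that marks glycoproteins for degradation, rose in obese 70% livers (0.57 ± 0.13, adjusted p = 0.00118) and fell in lean 80% livers (-0.33 ± 0.13, adjusted p = 0.0426), the second call being lost when any of 5 single arrays was left out (highest adjusted p 0.209). Sel1l, the HRD1 partner, fell in obese 80% (-0.44 ± 0.10, adjusted p = 0.000464) and lean 80% livers (-0.52 ± 0.10, adjusted p = 7.52e-05), and Edem1 was called against sham in no group. Derl3, a relative of Derl2, lay between 4.23 and 4.98 over the 24 arrays, was detected on 2 of them and was not tested.

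ATF4 is known to bind a composite C/EBP-ATF element, searched here as TGATGNAAN on both strands. It was found in 6 of 32 members, 5 of 9 in the ATF4 arm (Chac1, Trib3, Asns, Nupr1 and Vldlr) and Herpud1, and in 0 of 13 chaperone genes, against 3.95% of all promoters. The next lines show 4 of them because they include genes that moved in all 4 resection groups (Chac1, Asns, Nupr1) and a gene that did not (Vldlr); capitals mark the fixed letters, which read TT and CATCA around 1 free base where the element lies on the other strand.
Chac1: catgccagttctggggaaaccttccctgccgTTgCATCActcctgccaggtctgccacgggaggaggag
Asns: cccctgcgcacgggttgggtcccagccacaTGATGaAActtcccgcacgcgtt
Nupr1: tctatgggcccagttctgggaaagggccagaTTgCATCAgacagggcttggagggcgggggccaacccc
Vldlr: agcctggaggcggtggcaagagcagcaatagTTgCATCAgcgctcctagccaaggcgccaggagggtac
The stretches are chr2:119351018-119351086 (plus strand) for Chac1, chr6:7693210-7693262 (minus strand) for Asns, chr7:126625543-126625611 (minus strand) for Nupr1 and chr19:27216789-27216857 (plus strand) for Vldlr. Of the 6 members with this element 3 rose and 0 fell in obese 70% and 3 rose and 1 fell in obese 80% livers against sham. In lean 70% and in lean 80% livers 4 rose and 1 fell. The medians were 0.81, 1.08, 1.01 and 0.99, and 46.8%, 52.8%, 47.6% and 55% of all genes were called in these 4 comparisons. A link between this element and the change was not tested.

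Chac1, an enzyme that degrades glutathione and a known ATF4 target, gave the largest fold of all members in each resected group except lean 70% livers, where Asns gave the largest. Chac1 read 7.20, 6.99, 7.12 and 7.05 in obese sham, 10.46, 10.60, 10.70 and 10.69 in obese 70% and 11.12, 10.85, 10.77 and 10.50 in obese 80% livers. Lean arrays of Chac1 read 7.77, 7.62, 7.73 and 7.60 after sham surgery, 9.47, 8.79, 9.87 and 10.26 after 70% and 10.84, 10.90, 10.81 and 10.65 after 80% hepatectomy. Every resection array of either diet lay above every sham array. Chac1 rose by 3.53 ± 0.19 in obese 70% (11.5-fold, adjusted p = 7.32e-13) and by 3.72 ± 0.19 in obese 80% livers (13.2-fold, adjusted p = 1.58e-13). In lean mice it rose by 1.92 ± 0.19 after 70% (3.78-fold, adjusted p = 1.19e-08) and by 3.12 ± 0.19 after 80% hepatectomy (8.69-fold, adjusted p = 2.23e-12). In lean mice the difference by resection size was 1.20 ± 0.19, adjusted p = 0.000144 for lean 80% against lean 70%, and in obese mice that difference was 0.20 ± 0.19, adjusted p = 0.586. The interaction of diet with 70% hepatectomy was 1.61 ± 0.27, adjusted p = 0.00028.

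Asns encodes asparagine synthetase, a textbook target of the amino acid branch of ATF4 signalling. Obese arrays of Asns read 4.69, 4.80, 4.55 and 4.65 in obese sham, 6.03, 6.23, 6.37 and 6.86 in obese 70% and 7.32, 7.13, 6.87 and 6.72 in obese 80% livers. For Asns in lean livers the values were 6.59, 5.90, 6.48 and 5.65 after sham surgery, 8.32, 8.32, 8.35 and 8.43 after 70% and 7.52, 7.77, 7.71 and 8.57 after 80% hepatectomy. Resection arrays lay above sham arrays in both diets, and all 4 lean sham arrays lay above all 4 obese sham arrays, where the probe was detected on 1 array. The obese sham mean, 4.67, lay below 4.73, the lowest signal well above background on any array, so the size of each difference from obese sham is uncertain. The log2 difference was 1.70 ± 0.21, adjusted p = 5.30e-07 for obese 70% and 2.34 ± 0.21, adjusted p = 2.33e-09 for obese 80% against obese sham, and 2.20 ± 0.21, adjusted p = 8.10e-09 for lean 70% and 1.74 ± 0.21, adjusted p = 2.23e-07 for lean 80% against lean sham. The obese minus lean difference was -1.48 ± 0.21 after sham surgery (adjusted p = 3.71e-05), -1.98 ± 0.21 after 70% (adjusted p = 4.07e-07) and -0.88 ± 0.21 after 80% hepatectomy (adjusted p = 0.00402). A second, dimmer Asns probe gave -0.11 after sham surgery (adjusted p = 0.812), where the call was lost, and smaller rises of 0.61 in obese 70% (adjusted p = 0.013) and 0.72 in obese 80% livers (adjusted p = 0.00326).

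Ddit3 encodes CHOP, a pro-death transcription factor downstream of ATF4, and its change after 70% hepatectomy differed between the diets. The Ddit3 level was 6.41, 5.91, 5.94 and 5.73 in obese sham, 7.41, 7.62, 7.38 and 7.78 in obese 70% and 6.45, 7.35, 7.05 and 6.62 in obese 80% livers. In lean mice Ddit3 was at 5.99, 6.49, 6.12 and 6.12 after sham surgery, 5.55, 4.92, 5.50 and 6.34 after 70% and 5.86, 5.72, 6.64 and 6.35 after 80% hepatectomy. All obese 70% and obese 80% arrays lay above all obese sham arrays, while lean resection arrays overlapped lean sham arrays. Ddit3 rose by 1.55 ± 0.24 in obese 70% (2.93-fold, adjusted p = 1.28e-05) and by 0.87 ± 0.24 in obese 80% livers (adjusted p = 0.00408). In lean 70% livers the difference was -0.60 ± 0.24, adjusted p = 0.0433, a call lost when any of 6 single arrays was left out (highest adjusted p 0.202), without background correction and on the series matrix values. In lean 80% livers it was -0.04 ± 0.24, adjusted p = 0.902. The 70% interaction was 2.15 ± 0.34, adjusted p = 0.000202, the second largest of the 32 members after Creld2, and slide and diet cannot be told apart in it. The 80% interaction, 0.91 (adjusted p = 0.0892), did not pass. A second Ddit3 probe of like brightness gave 0.68 in obese 70% (adjusted p = 0.0387) and 0.14 in obese 80% livers (adjusted p = 0.682), so that the obese 80% call was lost. On it Ddit3 fell by 0.99 in lean 70% (adjusted p = 0.00345) and by 0.87 in lean 80% livers (adjusted p = 0.00792). Its 70% interaction was 1.67 (adjusted p = 0.00337) and its 80% interaction 1.01 (adjusted p = 0.0917).

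Atf4 itself is controlled mostly by translation, so that its mRNA level is only part of its regulation. Atf4 read 10.57, 10.63, 10.98 and 10.96 in obese sham, 11.65, 11.59, 11.51 and 11.59 in obese 70% and 11.76, 11.78, 11.81 and 11.72 in obese 80% livers. Lean livers gave 10.92, 11.27, 11.04 and 11.23 after sham surgery, 11.44, 11.03, 11.48 and 11.51 after 70% and 11.22, 11.01, 12.04 and 11.40 after 80% hepatectomy. Both obese resection groups lay above all obese sham arrays and the lean groups overlapped. Atf4 rose by 0.80 ± 0.16 in obese 70% (adjusted p = 0.000186) and by 0.98 ± 0.16 in obese 80% livers (adjusted p = 1.16e-05), and the differences in lean 70% and lean 80% livers were 0.25 ± 0.16, adjusted p = 0.202 and 0.30 ± 0.16, adjusted p = 0.106. The related factor Atf5 fell in obese 70% (-0.57 ± 0.20, adjusted p = 0.0215) and obese 80% livers (-0.66 ± 0.20, adjusted p = 0.00695), with no call in lean livers.

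Ppp1r15a encodes GADD34, the phosphatase subunit that reverses eIF2α phosphorylation. Obese arrays of Ppp1r15a read 6.08, 5.87, 5.91 and 5.62 in obese sham, 7.09, 6.96, 7.12 and 7.46 in obese 70% and 7.25, 7.05, 7.76 and 7.47 in obese 80% livers. Lean arrays of Ppp1r15a read 5.78, 6.06, 6.03 and 5.86 after sham surgery, 6.75, 6.61, 6.94 and 7.30 after 70% and 7.48, 7.17, 7.59 and 7.22 after 80% hepatectomy. Every resection array lay above every sham array. The differences were 1.29 ± 0.16 in obese 70%, 1.52 ± 0.16 in obese 80%, 0.97 ± 0.16 in lean 70% and 1.43 ± 0.16 in lean 80% livers against sham (adjusted p = 3.83e-07, 2.11e-08, 1.65e-05 and 4.48e-08).

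Nupr1, a small stress-induced chromatin protein, also separated all resection arrays from the sham arrays of their diet. The Nupr1 level was 5.59, 5.36, 5.26 and 5.12 in obese sham, 6.23, 6.34, 6.57 and 6.70 in obese 70% and 7.03, 6.66, 6.73 and 7.17 in obese 80% livers. For Nupr1 in lean livers the values were 5.23, 5.03, 5.92 and 5.77 after sham surgery, 6.18, 6.56, 6.30 and 6.54 after 70% and 6.11, 6.37, 7.37 and 6.46 after 80% hepatectomy. The differences from sham were 1.13 ± 0.21 in obese 70%, 1.56 ± 0.21 in obese 80%, 0.91 ± 0.21 in lean 70% and 1.10 ± 0.21 in lean 80% livers (adjusted p = 0.000136, 1.50e-06, 0.0011 and 0.000134). Neither Ppp1r15a nor Nupr1 passed an interaction test with diet, with 70% interactions of 0.32 ± 0.22, adjusted p = 0.326 and 0.22 ± 0.30, adjusted p = 0.66.

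Trib3, a pseudokinase that restrains ATF4 and insulin signalling, passed the threshold in both lean resection groups and in neither obese group. Trib3 read 6.24, 6.22, 6.43 and 6.34 in obese sham, 6.73, 6.70, 6.75 and 6.98 in obese 70% and 7.26, 6.47, 7.07 and 6.80 in obese 80% livers. In lean mice Trib3 was at 6.75, 5.91, 5.57 and 5.73 after sham surgery, 7.70, 6.30, 7.59 and 6.83 after 70% and 6.16, 6.08, 7.31 and 7.97 after 80% hepatectomy. The lean groups were wide and overlapped, and all obese resection arrays lay above all obese sham arrays. In lean 70% and lean 80% livers the differences were 1.11 ± 0.33, adjusted p = 0.00803 and 0.89 ± 0.33, adjusted p = 0.0274, the second lost when any of 5 single arrays was left out (highest adjusted p 0.157) and the first with slide as a fixed term (adjusted p = 0.138). In obese 70% and obese 80% livers they were 0.48 ± 0.33, adjusted p = 0.247 and 0.59 ± 0.33, adjusted p = 0.142, and the 70% interaction, -0.63 ± 0.47, adjusted p = 0.375, did not pass.

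Vldlr, the very low density lipoprotein receptor and an ATF4 target, differed between the diets after each operation. Obese arrays of Vldlr read 6.15, 6.48, 7.17 and 7.01 in obese sham, 6.23, 6.99, 7.05 and 6.19 in obese 70% and 7.59, 6.11, 7.72 and 7.48 in obese 80% livers. Lean livers gave 4.45, 4.34, 4.34 and 5.03 after sham surgery, 5.13, 4.37, 4.40 and 4.40 after 70% and 4.39, 4.92, 4.40 and 4.46 after 80% hepatectomy. All 12 obese arrays lay above all 12 lean arrays, and in each lean group the probe was detected on 1 array. The lean group means, 4.54 to 4.57, lay below 4.73, the lowest signal well above background on any array, so the sizes of the differences between diets are uncertain. The obese minus lean difference was 2.17 ± 0.30, adjusted p = 2.25e-05 after sham surgery, 2.04 ± 0.30, adjusted p = 2.04e-05 after 70% and 2.69 ± 0.30, adjusted p = 2.09e-06 after 80% hepatectomy. Against sham it was called in no group.

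**Figure D4:**
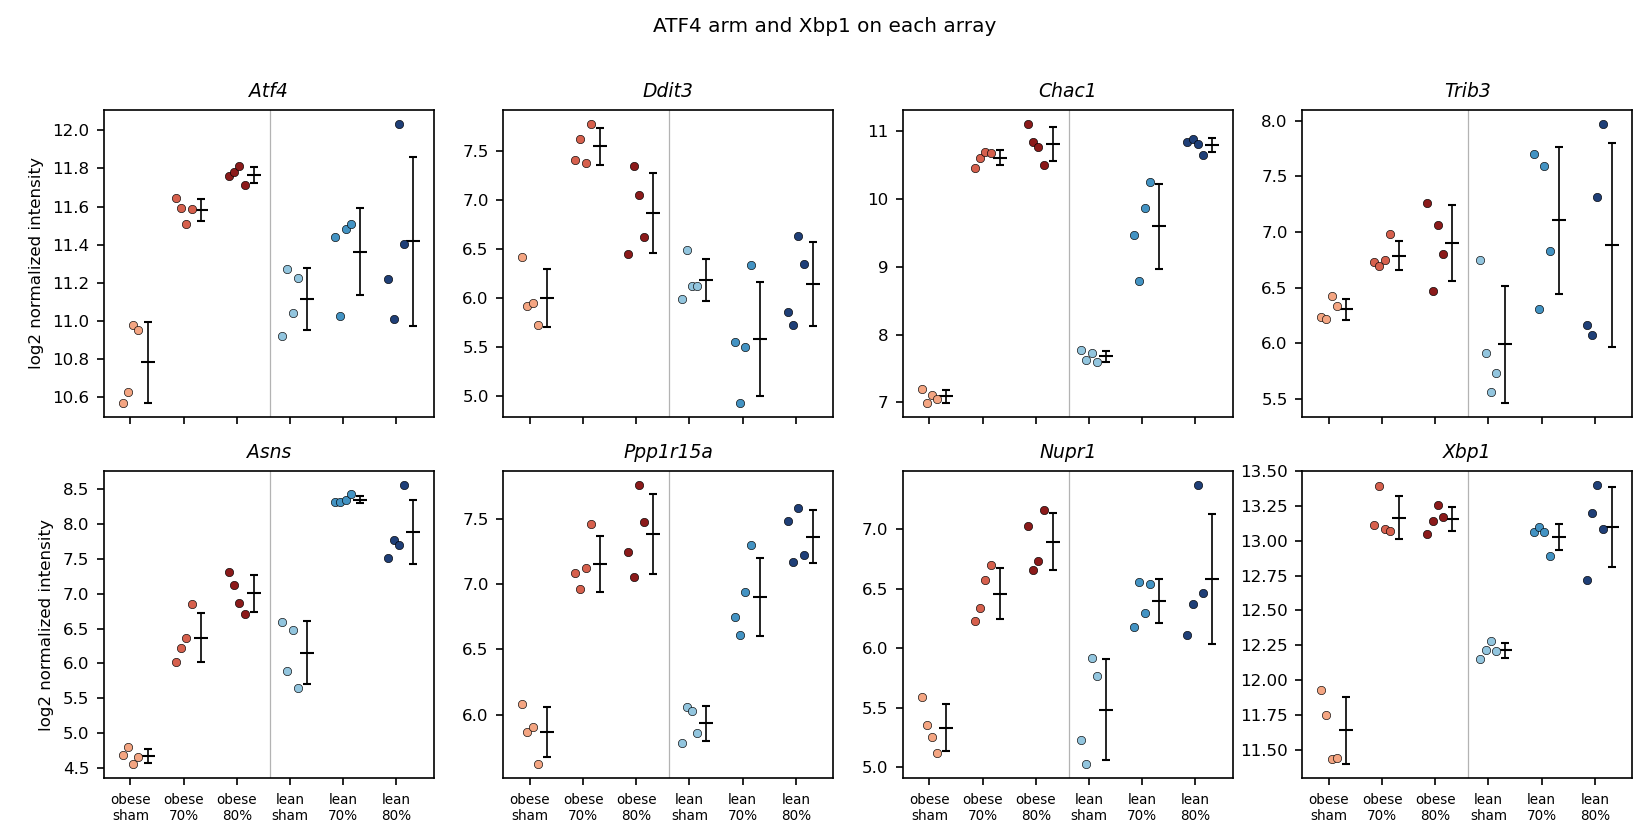
Log2 normalized intensity (y axes, not starting at 0) on each array (points, 4 a group) with the mean ± SD (n = 4), for 7 genes of the ATF4 arm and for Xbp1. Resection arrays of Chac1, Ppp1r15a and Xbp1 lie above all sham arrays of either diet, while Ddit3 is high in both obese resection groups and overlaps sham in lean mice.

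Of the sensors and their factors, Xbp1 rose and Ern1 fell after all 4 resections. The Xbp1 level was 11.93, 11.75, 11.43 and 11.44 in obese sham, 13.12, 13.40, 13.08 and 13.07 in obese 70% and 13.05, 13.14, 13.26 and 13.17 in obese 80% livers. Lean arrays of Xbp1 read 12.15, 12.22, 12.28 and 12.21 after sham surgery, 13.06, 13.10, 13.06 and 12.89 after 70% and 12.72, 13.20, 13.40 and 13.08 after 80% hepatectomy. Every resection array lay above every sham array, and the obese sham arrays lay below the lean sham arrays. Whether the probe reads spliced or unspliced Xbp1 mRNA is not stated in the annotation used here. Xbp1 rose by 1.53 ± 0.12 in obese 70% and 1.52 ± 0.12 in obese 80% livers (adjusted p = 8.41e-10 and 5.61e-10), and by 0.81 ± 0.12 in lean 70% and 0.88 ± 0.12 in lean 80% livers (adjusted p = 8.75e-06 and 2.11e-06). Its change was larger in obese mice by 0.72 ± 0.18, adjusted p = 0.00695 after 70% hepatectomy. The obese minus lean difference was -0.58 ± 0.12, adjusted p = 0.00282 after sham surgery, and the resected groups differed by 0.14 ± 0.12, adjusted p = 0.423 at 70% and 0.05 ± 0.12, adjusted p = 0.801 at 80%.

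Ern1, which encodes the sensor IRE1α, fell where Xbp1 rose. Ern1 read 8.67, 8.67, 9.13 and 9.09 in obese sham, 7.67, 8.03, 7.64 and 7.87 in obese 70% and 7.88, 7.85, 8.05 and 8.24 in obese 80% livers. For Ern1 in lean livers the values were 9.07, 8.82, 9.01 and 9.39 after sham surgery, 8.29, 7.44, 7.67 and 7.38 after 70% and 7.15, 7.18, 7.44 and 7.42 after 80% hepatectomy. All resection arrays lay below all sham arrays of their diet. Ern1 fell by 1.09 ± 0.17 in obese 70% and 0.89 ± 0.17 in obese 80% livers (adjusted p = 1.17e-05 and 0.000103), and by 1.38 ± 0.17 in lean 70% and 1.78 ± 0.17 in lean 80% livers (adjusted p = 3.59e-07 and 4.62e-09). Eif2ak3, the gene of PERK, stayed dim, with group means of 5.57 in obese 70% and 5.29 in obese sham livers, and was called in no comparison. Atf6 was not well above background on any obese 70% or lean 70% array, and it was at least 1.10-fold higher in obese sham than in obese 70% livers and at least 1.01-fold higher in lean sham than in lean 70% livers (adjusted p = 0.00364 and 0.0248). The lean call of Atf6 was lost without lean 70% array 4 (adjusted p = 0.0633) or lean sham array 3 (adjusted p = 0.102).

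Comparing the diets directly, obese sham livers had less of several folding genes than lean sham livers: 5 of 13 chaperone genes were lower and 0 higher by limma (6 and 0 at an unadjusted p under 0.05). Over all genes 12.2% were called (6.1% higher and 6.09% lower), and of the 32 members 2 were higher (Atf5 and Vldlr) and 9 lower. Groups did not overlap in 11 members, against 20% of all genes. The lower chaperone genes were Sdf2l1, Hyou1, Calr, Pdia6 and Dnajc3, with differences of -0.95, -0.60, -0.73, -0.76 and -0.34 (SE 0.26, 0.19, 0.15, 0.17 and 0.11; adjusted p = 0.0159, 0.0347, 0.00171, 0.00451 and 0.0441). The other lower members were Edem2 (-0.84 ± 0.13, adjusted p = 0.000136), Chac1 (-0.59 ± 0.19, adjusted p = 0.04), Asns and Xbp1. This count was 7 with slides as random blocks and 5 with slide as a fixed term or within slide 1, and it was 6 or 7 without lean sham array 1 or 2 or obese sham array 2, 3 or 4. Single left-out arrays ended the calls of Hyou1 (7 arrays, highest adjusted p 0.0909), Dnajc3 (9 arrays, 0.184), Chac1 (8 arrays, 0.0915) and Atf5 (11 arrays, 0.158). On its second probe the Pdia6 difference was -0.25 (adjusted p = 0.412).

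After 70% hepatectomy 12 members were higher and 2 lower in obese than in lean livers, where 30.6% of all genes were called (16.9% higher, 13.7% lower). In 14 members the groups did not overlap, against 26.8% of all genes. The 7 chaperone genes called were among the higher ones, led by Creld2 (2.12 ± 0.29, adjusted p = 1.17e-05) and Dnajb9 (1.76 ± 0.26, adjusted p = 2.61e-05). The others were Syvn1 (1.76 ± 0.20, adjusted p = 1.25e-06), Herpud1 (1.36 ± 0.13, adjusted p = 1.74e-07), Ddit3 (1.97 ± 0.24, adjusted p = 2.94e-06), Chac1 (1.02 ± 0.19, adjusted p = 0.000283) and Vldlr. Of the 4 sensors and factors 0 were called by limma here, and 0 at an unadjusted p under 0.05. The lower ones were Asns and Derl2 (-0.43 ± 0.16, adjusted p = 0.04, lost when any of 7 single arrays was left out, highest adjusted p 0.101). After 80% hepatectomy 6 were higher and 2 lower, where 22.9% of all genes were called (13.5% higher, 9.46% lower). Groups did not overlap in 4 members, against 20.9% of all genes. Those higher were Dnajb9 (0.77 ± 0.26, adjusted p = 0.0349), Syvn1 (0.66 ± 0.20, adjusted p = 0.0203), Herpud1 (0.58 ± 0.13, adjusted p = 0.00346), Ddit3 (0.73 ± 0.24, adjusted p = 0.0319), Ern1 (0.71 ± 0.17, adjusted p = 0.00407) and Vldlr, and those lower were Asns and Edem1 (-0.67 ± 0.19, adjusted p = 0.0126). Dnajb9 was the 1 chaperone gene among them, and on its second probe the 80% difference was 0.71 (adjusted p = 0.0889). The 80% count of 8 was 4 with slide as a fixed term, within slide 4 and with only these groups fitted, 5 without lean 80% array 1 or obese 80% array 3, and 13 without lean 80% array 3. Single left-out arrays ended the 70% calls of Calr (4 arrays, highest adjusted p 0.0952) and Hsp90b1 (6 arrays, 0.144) and the 80% calls of Dnajb9 (5 arrays, 0.174), Ddit3 (4 arrays, 0.116), Syvn1 (3 arrays, 0.101) and Edem1 (2 arrays, 0.0715). Under upper-quartile scaling the median of all genes shifted to -0.10 in obese against lean 80% livers, and 40.4% and 40.1% of the called genes were higher after 70% and 80% hepatectomy, against 55.1% and 58.8% with quantile normalization.

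The test of the difference itself, the interaction of diet with 70% hepatectomy, was positive in 15 members and negative in 0 (18 and 1 at an unadjusted p under 0.05), where 18.1% of all genes were called (9.82% higher, 8.31% lower). These were 9 of 13 chaperone genes, 3 of 6 degradation genes, 2 of 9 ATF4 arm genes (Ddit3 and Chac1) and Xbp1. The median interaction was 0.66 over the chaperone genes, 0.22 over the ATF4 arm and 0.04 over all genes. For Calr the obese minus lean difference was 0.44 after 70% hepatectomy and -0.73 after sham surgery, and for Creld2 it was 2.12 and -0.32. With slides as random blocks the count was 9. These counts use the brightest probe of each gene. On a further probe the 70% interaction of Asns was negative and passed (-0.85, adjusted p = 0.0335). Further probes of Atf4 (0.82, adjusted p = 0.0242), Pdia6 (0.92, adjusted p = 0.0097) and Sel1l (0.86, adjusted p = 0.017) passed as positive. Another Sel1l probe gave -0.31 (adjusted p = 0.479), and Dnajb9 lost its call on its second probe (1.04, adjusted p = 0.0811). Single left-out arrays ended the calls of P4hb (17 arrays, highest adjusted p 0.0979), Sdf2l1 (12 arrays, 0.0957), Pdia3 (10 arrays, 0.083), Manf (8 arrays, 0.0727) and Hsp90b1 (1 array, 0.0568). For 80% hepatectomy the interaction was positive in 5 members and negative in 0 (10 and 0 at an unadjusted p under 0.05), where 11% of all genes were called (6.51% higher, 4.52% lower). These were Sdf2l1 (1.16 ± 0.36, adjusted p = 0.0389), Pdia6 (0.81 ± 0.25, adjusted p = 0.0356), Atf4 (0.68 ± 0.22, adjusted p = 0.0473), Ern1 (0.89 ± 0.24, adjusted p = 0.0174) and Xbp1 (0.63 ± 0.18, adjusted p = 0.0227). That count was between 1 and 3 without lean sham array 1 or 2, obese sham array 2, 3 or 4, lean 80% array 1 or 2 or obese 80% array 2, 3 or 4, and 1 with slide as a random block or fixed term. On second probes this interaction was 0.34 for Pdia6 (adjusted p = 0.415) and 0.68 for Atf4 (adjusted p = 0.092). Its call was lost without any of 19 single arrays for Atf4 (highest adjusted p 0.109) and any of 9 for Sdf2l1 (0.0908). For Pdia6 it was lost without any of 8 (0.0825), and for Xbp1 without either of 2 (0.0558).

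**Figure D5:**
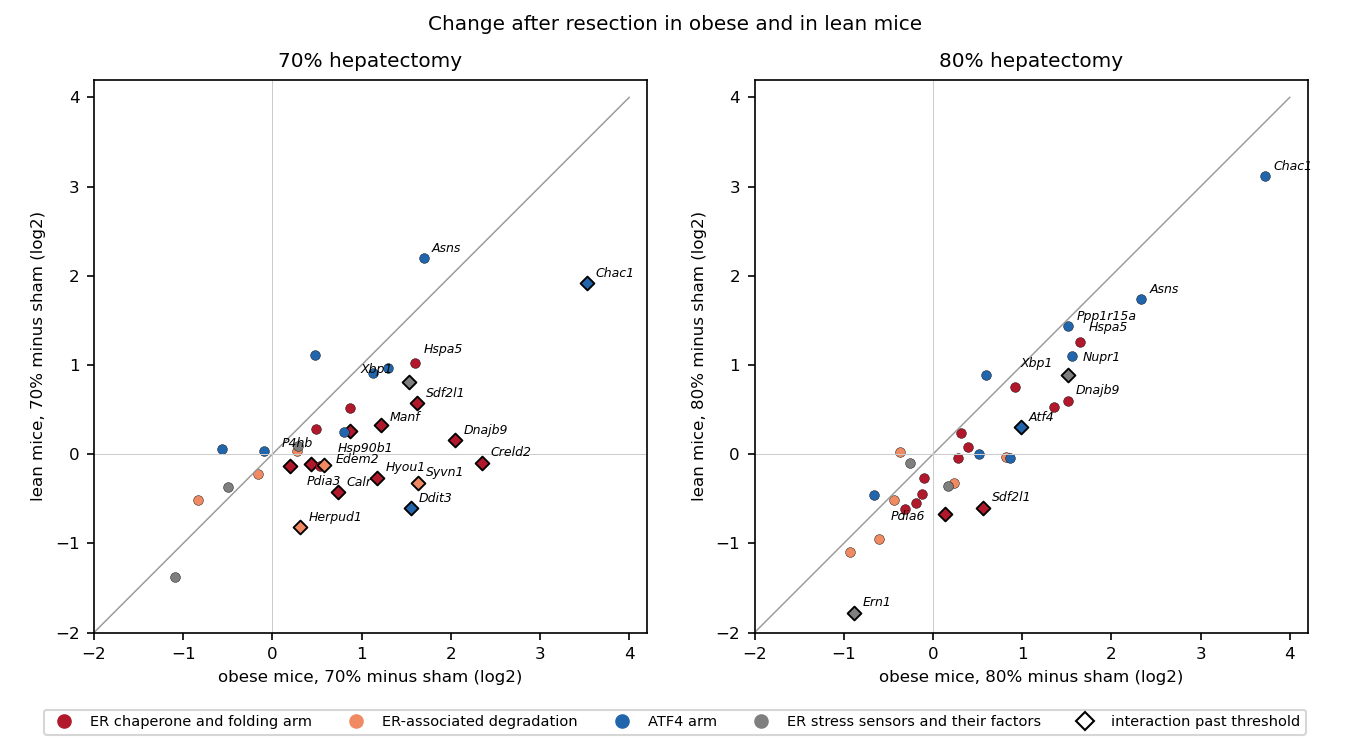
Log2 change from sham in obese mice (x axis) against that in lean mice (y axis) for each of the 32 members, after 70% (left) and 80% (right) hepatectomy, coloured by role, with diamonds where the interaction passed the threshold and a line of equal change. After 70% hepatectomy 15 diamonds lie below the line, among them Creld2 at 2.35 and -0.09; after 80% hepatectomy there are 5. The 2 axes use different sham groups, and Manf rests on undetected obese sham values.

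By resection size, 9 of 13 chaperone genes and 3 of 6 degradation genes were lower in obese 80% than in obese 70% livers, and 0 of 9 ATF4 arm genes passed in either direction with limma (2 higher and 1 lower at an unadjusted p under 0.05). Over all genes 7.86% were called there (4.31% higher, 3.55% lower), and over the members 0 were higher and 12 lower (2 and 17 at an unadjusted p under 0.05). All 12 were folding or degradation genes. In 16 members the groups did not overlap, against 15% of all genes. The obese 70% arrays lay on slide 3 and the obese 80% arrays on slide 4, and only the lean 80% arrays lay on both slides. With slide as a random block 2.55% of all genes were called in this comparison, and with slide as a fixed term 5.65%. The largest differences were -1.06 ± 0.26, adjusted p = 0.0138 for Sdf2l1, -0.98 ± 0.29, adjusted p = 0.0396 for Creld2, -0.92 ± 0.15, adjusted p = 0.000717 for Calr and -0.92 ± 0.13, adjusted p = 0.000266 for Herpud1. Left-out arrays moved the count of 12 to 6 without obese 80% array 1 and to 7 without obese 70% array 2 or obese 80% array 4. Creld2 lost its call when any of 5 single arrays was left out (highest adjusted p 0.136), and Sdf2l1 without obese 70% array 2 (-0.95, adjusted p = 0.0529), obese 80% array 1 (-0.85, adjusted p = 0.0563) or obese 80% array 4 (-0.91, adjusted p = 0.0638). In lean mice the calls by resection size went both ways. In lean 80% against lean 70% livers 16.6% of genes were called (7.02% higher, 9.6% lower) and 2 members were higher, Chac1 and Ppp1r15a (0.46 ± 0.16, adjusted p = 0.0431). The 5 lower ones were Sdf2l1 (-1.17 ± 0.26, adjusted p = 0.00358), Pdia4 (-0.90 ± 0.17, adjusted p = 0.000908), Pdia6 (-0.54 ± 0.17, adjusted p = 0.0354), Sel1l (-0.30 ± 0.10, adjusted p = 0.0361) and Derl2 (-0.58 ± 0.16, adjusted p = 0.0138). Groups did not overlap in 7 members, against 12.6% of all genes. The count of 7 called was 4 without lean 70% array 1 or lean 80% array 2 and 13 without lean 70% array 4. Single left-out arrays ended the calls of Ppp1r15a (8 arrays, highest adjusted p 0.147), Pdia6 (5 arrays, 0.108), Sel1l (5 arrays, 0.138) and Derl2 (1 array, 0.0507). The Pdia6 call was also lost on its second probe (0.22, adjusted p = 0.39), and that of Sel1l on 2 further probes. The difference of the size effect between diets passed in 8 members, where 12.4% of all genes were called (6.97% higher, 5.4% lower). It was negative for Creld2 (-1.60 ± 0.41, adjusted p = 0.0151), Hyou1, Calr, Syvn1, Herpud1, Ddit3 and Chac1, and positive for Asns (1.10 ± 0.30, adjusted p = 0.0182). The calls of Ddit3 (-0.66, adjusted p = 0.241) and Asns (0.25, adjusted p = 0.577) were lost on their second probes.

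Other genes of these pathways, listed by role, were read in the same way. Of 19 further ATF4 targets tested, 11 rose and 1 fell in obese 70%, 12 and 1 in obese 80%, 13 and 1 in lean 70%, and 14 and 1 in lean 80% livers against sham. These are 63.2%, 68.4%, 73.7% and 78.9% of the list called in either direction, against 46.8%, 52.8%, 47.6% and 55% of all genes. Atf3, a stress-induced factor, was not detected on any lean sham array and was at least 5.79-fold higher in lean 70% and at least 14.9-fold higher in lean 80% livers (adjusted p = 6.32e-09 and 5.54e-12); its differences were 2.93 ± 0.27 in obese 70% and 3.46 ± 0.27 in obese 80% livers (adjusted p = 5.16e-09 and 1.95e-10). Mthfd2, a mitochondrial folate enzyme, rose in all 4 groups, by 1.59 ± 0.43 in obese 70% and 2.39 ± 0.43 in obese 80% livers. Cth, which makes cysteine, rose by 2.33 ± 0.34 in lean 70% and 2.01 ± 0.34 in lean 80% livers, and differed by 0.12 ± 0.34 (adjusted p = 0.788) and 0.14 ± 0.34 (adjusted p = 0.761) in the obese groups. Fgf21, a secreted hormone, rose in lean 80% livers (2.76 ± 0.53, adjusted p = 0.000113) and was called in no other resection group.

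Of 26 further ER folding and secretory genes, 16 rose and 0 fell in obese 70%, 9 and 1 in obese 80%, 4 and 3 in lean 70%, and 6 and 7 in lean 80% livers against sham, and 11 were lower and 0 higher in obese sham than in lean sham livers. In either direction 61.5%, 38.5%, 26.9% and 50% of the list were called against sham, beside the 46.8%, 52.8%, 47.6% and 55% of all genes, and 42.3% between the sham groups, beside 12.2% of all genes. The diet interaction at 70% was positive in 10 and negative in 0 of them. Fkbp11, a prolyl isomerase of secretory cells, rose by 1.04 ± 0.17 in obese 70% and 0.87 ± 0.17 in obese 80% livers (adjusted p = 1.87e-05 and 0.000113), and its differences in lean 70% and lean 80% livers were -0.07 ± 0.17 (adjusted p = 0.777) and -0.44 ± 0.17 (adjusted p = 0.0288). Sec24d, a coat protein of vesicles leaving the ER, rose in all 4 groups, by 1.01 and 1.01 in obese and 1.42 and 1.54 in lean mice after 70% and 80% hepatectomy (each SE 0.15). Of 11 further degradation genes, 4 rose and 0 fell in obese 70%, 2 and 0 in obese 80%, 4 and 1 in lean 70%, and 3 and 2 in lean 80% livers, which is 36.4%, 18.2%, 45.5% and 45.5% of the list and below the share of all genes called in each comparison. Of 14 other sensors, kinases and regulators, 6 rose and 1 fell in obese 70%, 5 and 2 in obese 80%, 4 and 5 in lean 70%, and 5 and 4 in lean 80% livers. These 50%, 50%, 64.3% and 64.3% of the list lie beside the same shares of all genes, and the first 2 are near them. In that list Creb3l2, an ER-anchored factor, differed from sham by 2.73, 2.74, 1.97 and 1.53 in the same order (SE 0.18 each, adjusted p at most 1.15e-07).

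Further probes of the same genes gave a check on the probe chosen for each, which was the brightest. The 12 members with 17 further tested probes gave 80 pairs of a call and a further probe, of which 73 had the same sign and 49 were also called in the same direction, with 0 called in the opposite one. Edem2 depended on the probe: its difference in obese 70% livers was 0.04 to 0.28 on 3 dimmer probes and passed on 1 of them, and its fall in lean 80% livers passed on 0 of the 3. The 70% interaction of Edem2 was lost on 2 of these (0.11, adjusted p = 0.745, and -0.07, adjusted p = 0.886). Dim further probes of Trib3 (detected on 7 arrays) and Derl2 (on 4 arrays) also lacked the calls of the brightest probe: Trib3 differed by 0.30 in lean 70% (adjusted p = 0.0972) and -0.05 in lean 80% livers (adjusted p = 0.805), and this Derl2 probe was called against sham in no group.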

How the data were processed

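Per the labels' protocols, Trizol RNA was DNase-treated, amplified to biotin-labelled cRNA and hybridised to Illumina mouse BeadChips. The deposited table holds linear probe intensity values, to which no between-array normalization had been applied, and a detection score that runs against its column name, so 1 minus the deposited score was used as the detection p-value. The deposited series matrix holds log2 values. These equalled quantile-normalized log2 intensities centred on each probe's median, within 0.00957, which settles their scale, centring and direction, and they served as an alternative.

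Intensities were background-corrected by normexp with an offset of 16, quantile-normalized and taken to log2 with limma 3.58.1 (R 4.3.3). Probes with a detection p under 0.05 on at least 4 arrays were kept, 19631 of 45281. In the platform annotation 34885 probes had 1 gene, 18 several and 10378 none, and 34807 were matched by Entrez ID to RefSeq. The brightest probe stood for a gene. A single limma fit of 6 group means over 24 arrays (18 residual degrees of freedom) gave 12 contrasts, tested on both sides. On simulated data for obese 70% against obese sham over 10765 genes, 25 of 50 genes changed by 0.5 (log2) were recovered, 48 of 50 changed by 1, and 50 of 50 changed by 2 or by 4. The simulation had no slide effect and far fewer changed genes than the 46.8% called on the real arrays. Its recovery therefore need not hold for the real fit. The number of arrays limits precision. Members and lists were chosen with earlier results of these data known. Values on every array are given for a fixed set of members and for any other that passed without overlap and was among the 2 largest changes of its role in a resection or interaction contrast. Other pathway genes are named from the 4 largest called changes of each list. Alternatives changed the background step, scaling, filter, probe choice, slide, replicate block, groups fitted and each array left out.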

Additional observations from a re-analysis of the deposited data

Results flagged for a closer look

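Of 192 groups of 4 arrays examined (32 members in 6 groups), 17 had 1 array standing apart, with its gap to the nearest other array over Dixon's 95% critical value of the group's range; chance gives this in about 1 in 20 groups. For obese 80% array 1 these were Hspa5 at 8.82 against 9.56 to 9.68 on the others and Hsp90b1 at 11.82 against 12.39 to 12.46 on the others. For obese 70% array 2 these were Sdf2l1 at 8.19 against 7.74 to 7.76 on the others, Edem1 at 5.64 against 5.91 to 5.95 on the others and Xbp1 at 13.4 against 13.07 to 13.12 on the others. For obese sham array 3 this was Hyou1 at 5.44 against 5.51 to 5.52 on the others. For lean sham array 1 these were Pdia6 at 8.71 against 7.89 to 7.99 on the others and P4hb at 13.69 against 13.41 to 13.46 on the others. For obese 80% array 2 these were P4hb at 13.44 against 13.31 to 13.32 on the others, Vldlr at 6.11 against 7.48 to 7.72 on the others and Eif2ak3 at 4.65 against 5.7 to 5.74 on the others. For lean 80% array 1 this was Sel1l at 9.23 against 8.97 to 9.01 on the others. For lean 70% array 2 these were Atf4 at 11.03 against 11.44 to 11.51 on the others and Atf5 at 10.27 against 11.02 to 11.15 on the others. For lean sham array 4 this was Vldlr at 5.03 against 4.33 to 4.45 on the others. For lean 70% array 1 this was Vldlr at 5.12 against 4.37 to 4.4 on the others. For lean 80% array 2 this was Vldlr at 4.92 against 4.38 to 4.46 on the others. Levels are log2 normalized intensities.

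Effects under the same contrast differed between diets in these members by limma's test of the interaction, as obese minus lean change in log2. For 70% hepatectomy the values were Hsp90b1 (0.61, adjusted p = 0.024), Dnajb9 (1.9, adjusted p = 0.0011), Creld2 (2.44, adjusted p = 0.00035), Sdf2l1 (1.06, adjusted p = 0.044) and Hyou1 (1.44, adjusted p = 0.00064). Further members were Calr (1.16, adjusted p = 6e-04), Pdia3 (0.54, adjusted p = 0.037), P4hb (0.33, adjusted p = 0.049), Manf (0.89, adjusted p = 0.032) and Syvn1 (1.95, adjusted p = 8.9e-05). Further members were Herpud1 (1.13, adjusted p = 0.00032), Edem2 (0.69, adjusted p = 0.014), Ddit3 (2.15, adjusted p = 2e-04), Chac1 (1.61, adjusted p = 0.00028) and Xbp1 (0.72, adjusted p = 0.0069). For 80% hepatectomy they were Sdf2l1 (1.16, adjusted p = 0.039), Pdia6 (0.81, adjusted p = 0.036), Atf4 (0.68, adjusted p = 0.047), Ern1 (0.89, adjusted p = 0.017) and Xbp1 (0.63, adjusted p = 0.023). For the 80% minus 70% step they were Creld2 (-1.6, adjusted p = 0.015), Hyou1 (-1.12, adjusted p = 0.0082), Calr (-0.8, adjusted p = 0.016), Syvn1 (-1.1, adjusted p = 0.016) and Herpud1 (-0.79, adjusted p = 0.01). Further members were Ddit3 (-1.24, adjusted p = 0.02), Chac1 (-1.01, adjusted p = 0.017) and Asns (1.1, adjusted p = 0.018).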

How the results depend on the processing

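Of 156 member calls over the 12 comparisons, 95 kept their direction and stayed past the threshold under every left-out array and every alternative counted for them. The setting with every probe on its own was not counted here, so calls lost on a further probe can be among the 95. Slide as a fixed term could be fitted in only 5 of the 12 comparisons. Other settings gave 1627 values, of which 1466 kept the call, 159 kept the direction only and 2 reversed: P4hb in lean 80% against lean sham livers at 0.032 (adjusted p = 0.813) with upper-quartile scaling, and Calr in lean 70% against lean sham livers at 0.0184 (adjusted p = 0.963) with slide as a fixed term. Leaving out 1 array gave 3744 values, of which 3503 kept the call, 241 kept the direction only and 0 reversed.

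The median of the ATF4 arm, 0.91 in lean 70% livers, was 0.50 without background correction, 0.57 with an offset of 50 and 0.49 on the series matrix values. The 0.89 of lean 80% livers was 0.60 without background correction, 0.42 with the mean of a gene's probes or with every probe on its own, and 0.59 on the series matrix. The 1.13 of obese 70% livers was 0.78 without background correction, 0.79 with an offset of 50 and 0.79 on the series matrix. The chaperone median in obese 70% livers, 0.87, was 0.68 without background correction and 0.68 on the series matrix.

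Of the counts of members called, the 5 of the diet by 80% interaction was 3 with upper-quartile scaling, 2 with no filter, 3 with every probe on its own, 1 with slide as a random block, 1 with slide fixed and 3 with only those groups. The 11 of obese against lean sham was 7 with every probe on its own or a random block, and 5 with slide fixed or within slide 1. The 7 of 80% against 70% in lean mice was 4 with every probe, 3 with a random block and 3 with only those groups. With a random block the 15 of the diet by 70% interaction was 9 and the 8 of the diet by size interaction 4. With slide fixed the 14 of lean 70% livers was 9, and the 8 of obese against lean at 80% was 4, as within slide 4 and with only those groups. The cause was not tested. For 7 of the 12 comparisons no fit with slide as a fixed term could be made.

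Without 1 array the ATF4 median in lean 80% livers was 0.53 to 1.16, and the counts were 6 to 11 for obese against lean sham, 5 to 13 at 80%, 4 to 13 for 80% against 70% in lean mice, 6 to 14 in obese mice and 1 to 7 for the diet by 80% interaction. The replicate numbers did not pair arrays (60 same-number pairs, r -0.208 to 0.183); with them as a block the counts were 25 in obese 70%, 18 in obese 80%, 13 in lean 70% and 19 in lean 80% livers, and no count moved by over 1.5 times. The dimmest members (Manf, Asns, Vldlr, Atf6, Eif2ak3) lie close to background, which limits their folds.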
